A study of Mus musculus with 12 samples.

Results

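The genes Satb1, Dntt, Rag1, Rag2, Ccr9, Lsp1 and Cd27 are switched on early in the lymphoid branch of blood formation, and their chromatin accessibility was followed in 4 groups of mouse blood stem and progenitor cells measured by ATAC-seq. The assay uses the transposase Tn5 to cut and tag DNA that is not packed away, so a region's read count reflects how accessible it is. Regions of the deposited union set were assigned to a protein-coding gene if they overlapped its body, and failing that to the gene with the closest body, up to 100 kb away. This rule found 82 regions for the 7 genes, of 188262 regions in all. Satb1 had 37 regions, Dntt 12, Lsp1 11, Ccr9 9, Cd27 8, Rag1 4 and Rag2 1. All 82 passed the filter on low counts, although 23 of them averaged under 1 CPM, the unit of scaled counts used here (counts scaled to a common library total). Proximity is no proof that a region controls its gene.

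The groups were Phf6 knockout (KO) multipotent progenitors (MPP), wild-type (WT) MPP, KO long-term haematopoietic stem cells (LT-HSC) and WT LT-HSC, with 3 libraries each. All KO mice were Phf6-/Y with 1 Rosa26 allele carrying the tamoxifen-activated recombinase Cre-ERT2 (Rosa26+/Cre-ERT2). WT mice had the floxed, unrecombined form of Phf6 without the recombinase (Phf6f/Y Rosa26+/+), so effects of Cre-ERT2 and of Phf6 loss cannot be told apart. The age of the mice was not stated, and per the labels the LT-HSC samples were 20000 sorted cells taken from individual mice 8 weeks after tamoxifen, in both genotypes. The sources used here do not say how MPP were sorted, or whether MPP and LT-HSC of the same number came from 1 mouse, so p-values measure the spread between these libraries. Phf6, on the X chromosome, encodes a nuclear zinc finger protein.

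LT-HSC sustain blood formation for life, and MPP are their descendants, which still make every blood lineage but no longer renew for long. Part of the MPP compartment turns on lymphoid genes before any cell is committed to that fate. Satb1 encodes a DNA-binding protein that organises chromatin and favours lymphoid development. Rag1 and Rag2 together form the recombinase that cuts antigen receptor genes, and Dntt encodes terminal transferase, which adds bases to the cut ends. Ccr9 encodes a chemokine receptor that guides progenitors to the thymus, Cd27 encodes a receptor of the tumour necrosis factor receptor family that binds Cd70, and Lsp1 encodes a leukocyte protein that binds actin filaments.

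Promoter sequences are shown for the genes with a measured region at a start site, since accessibility at these starts is part of what was compared. They are from RefSeq on GRCm38.p6, 250 bases before to 50 bases after the start, 5′ to 3′ along the gene's strand. Capitals mark motif letters, searched for on both strands. The E box was spelled CANNTG and the Runx motif TGTGGT. Ets was searched as TTCCGG, and the core of the Ikaros motif as TGGGAA. The last pair were TGATAA, the motif of Gata factors, and TGANTCA, that of AP-1. Of 5 starts listed for Satb1, an outer one (chr17:51833241-51833540, minus strand) and an inner one (chr17:51832598-51832897, minus strand) lie under its start-site region and are shown, and Rag1 lies at chr2:101649483-101649782 (minus strand). Another Satb1 start (chr17:51826539-51826838, minus strand) lies under a different measured region and is not shown. Its window held 5 E box matches and 1 Ikaros core match. Ccr9 lies at chr9:123766961-123767260 (plus strand) and Cd27 at chr6:125236978-125237277 (minus strand).
Satb1 outer start: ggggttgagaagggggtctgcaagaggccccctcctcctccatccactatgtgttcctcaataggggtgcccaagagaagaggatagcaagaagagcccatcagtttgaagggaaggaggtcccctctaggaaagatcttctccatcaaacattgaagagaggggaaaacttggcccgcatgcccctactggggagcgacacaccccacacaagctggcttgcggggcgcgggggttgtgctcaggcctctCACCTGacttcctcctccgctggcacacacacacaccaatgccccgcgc
Satb1 inner start: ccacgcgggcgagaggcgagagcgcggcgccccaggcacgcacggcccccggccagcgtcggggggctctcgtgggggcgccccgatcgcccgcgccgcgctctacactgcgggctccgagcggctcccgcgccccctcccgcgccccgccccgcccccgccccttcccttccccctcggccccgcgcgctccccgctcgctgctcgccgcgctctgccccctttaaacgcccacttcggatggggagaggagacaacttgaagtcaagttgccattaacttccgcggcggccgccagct
Rag1: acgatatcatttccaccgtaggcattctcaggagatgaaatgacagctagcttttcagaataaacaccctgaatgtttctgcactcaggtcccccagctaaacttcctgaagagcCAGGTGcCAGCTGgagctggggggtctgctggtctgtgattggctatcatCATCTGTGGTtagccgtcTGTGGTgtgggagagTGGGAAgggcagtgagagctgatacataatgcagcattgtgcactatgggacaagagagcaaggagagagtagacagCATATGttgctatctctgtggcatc
Ccr9: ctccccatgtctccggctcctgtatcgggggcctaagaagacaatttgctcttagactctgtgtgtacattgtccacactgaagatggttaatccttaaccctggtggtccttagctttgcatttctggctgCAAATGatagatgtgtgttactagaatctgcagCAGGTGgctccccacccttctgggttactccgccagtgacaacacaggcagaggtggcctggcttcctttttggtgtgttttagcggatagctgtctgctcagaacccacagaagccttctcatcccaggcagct
Cd27: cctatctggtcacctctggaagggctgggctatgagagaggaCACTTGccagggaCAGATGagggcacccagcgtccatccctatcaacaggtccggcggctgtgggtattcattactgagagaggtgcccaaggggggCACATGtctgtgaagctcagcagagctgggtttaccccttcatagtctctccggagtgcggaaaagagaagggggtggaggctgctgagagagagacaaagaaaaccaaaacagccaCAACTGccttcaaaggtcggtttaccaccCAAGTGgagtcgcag
An E box was the most common match, with 1 at the Satb1 outer start, 4 at Rag1, 2 at Ccr9 and 5 at Cd27, while the Satb1 inner start held none of the 6 motifs. Rag1 also held 2 Runx matches, of which 1 shares its first bases with an E box, and 1 Ikaros core match. Among all 32851 promoters of the same length, 72.3% held an E box, 16.8% a Runx match and 25.6% an Ikaros core. The other motifs had no match in these windows and occurred in 14.9% (Ets), 9.05% (Gata) and 7.81% (AP-1) of all promoters. GC content was 76.7% at the Satb1 inner start and 59.0% at its outer start, 51.3% at Ccr9 and 56.0% at Cd27, against a median of 52.7% over all promoters. No promoter entry was matched for Lsp1.

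Total counts ran from 22665988 to 48547234 per library, with ranges that overlapped between all 4 groups, and a single region of these genes held 0 to 1343 reads in a library. The share of counts in regions within 1 kb of a gene end was 41.0 to 41.4% in KO MPP and 39.2 to 41.0% in WT MPP, against 39.2 to 39.6% in KO LT-HSC and 37.8 to 38.9% in WT LT-HSC. It was higher in KO than in WT and in MPP than in LT-HSC. Between compared groups the ranges did not overlap, except that KO and WT MPP met at 41.0%. Fits with it as a covariate are given where they end a call. It nearly follows the groups, so a call lost this way cannot be told apart from lost power of the test. Over all regions, those called higher in KO fell with it from 6093 to 1382 in LT-HSC and from 9542 to 3304 in MPP. Of 10 regions assigned to Phf6, 0 passed the test of KO against WT in LT-HSC and 1 was higher in KO MPP; the sources used here do not say which part of Phf6 was deleted, so these counts do not check the genotype labels. The population labels were compared with marker genes, in lists chosen with earlier results of these data known. Counts summed over each gene's regions were lower in MPP for 10 of 10 HSC markers and higher for 5 of 5 MPP markers, in KO and in WT. Over all gene sums, 34.5% were lower and 38.0% higher in KO, and 36.6% and 36.7% in WT.

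Ccr9, Dntt and Satb1 were more accessible in MPP than in LT-HSC in both genotypes, whereas Lsp1 was less accessible in MPP. The sums of Rag1 and Rag2 were also lower in MPP, but each changed sign in an alternative given below. The only region counted for Rag2 is shared with another gene. Counts were summed over all regions of a gene, scaled to CPM, and compared with edgeR's quasi-likelihood test with Benjamini-Hochberg adjustment over 18829 genes. In KO, 4 of the 7 gene sums were higher in MPP and 3 lower, where 38.0% of all genes were higher and 34.5% lower. In WT, 3 were higher and 3 lower, where 36.7% of all genes were higher and 36.6% lower. Since ATAC-seq of a sorted population is a bulk measure, fewer cells with an open region and a less open region in each cell cannot be told apart.

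Ccr9 had the largest change among the 7. Its sum was 37.1, 38.4 and 37.9 CPM in KO MPP and 42.4, 40.7 and 43.8 CPM in WT MPP, against 13.2, 14.4 and 13.7 CPM in KO LT-HSC and 13.7, 13.7 and 16 CPM in WT LT-HSC. Every MPP library lay above every LT-HSC library, and the log2 fold change of MPP over LT-HSC was 1.46 ± 0.06 in KO (SE; adjusted p = 2.52e-14) and 1.55 ± 0.06 in WT (adjusted p = 5.77e-15). Dntt summed to 112, 117 and 118 CPM in KO MPP and 105, 103 and 114 CPM in WT MPP, against 62.9, 69.2 and 66.3 CPM in KO LT-HSC and 61.7, 58.5 and 67.2 CPM in WT LT-HSC. Both genotypes of MPP lay above all LT-HSC libraries, with log2 fold changes of 0.81 ± 0.05 in KO (adjusted p = 5.41e-12) and 0.78 ± 0.05 in WT (adjusted p = 8.33e-12). Satb1 behaved alike, at 116, 121 and 128 CPM in KO MPP and 120, 121 and 112 CPM in WT MPP, against 73.9, 76.7 and 73.9 CPM in KO LT-HSC and 77.4, 78.0 and 71.3 CPM in WT LT-HSC. Its log2 fold change was 0.70 ± 0.04 in KO (adjusted p = 8.44e-12) and 0.64 ± 0.04 in WT (adjusted p = 2.64e-11).

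Lsp1 went the other way. Its sum was 48.1, 49 and 48.7 CPM in KO MPP and 45.8, 45.9 and 49.3 CPM in WT MPP, against 72.4, 73.4 and 73.1 CPM in KO LT-HSC and 69.9, 62.9 and 67.1 CPM in WT LT-HSC. Every MPP library lay below every LT-HSC library, and the log2 fold change was -0.59 ± 0.04 in KO (adjusted p = 1.79e-10) and -0.51 ± 0.04 in WT (adjusted p = 1.43e-09). Rag1 was the weakest of the 7 in summed counts, at 6.55 ± 0.238 CPM in KO MPP and 6.39 ± 0.592 CPM in WT MPP, against 8.22 ± 0.275 CPM in KO LT-HSC and 8.01 ± 1.19 CPM in WT LT-HSC (SD, n = 3 each). It fell by 0.33 in KO (adjusted p = 0.00997) and by 0.34 in WT (adjusted p = 0.00718) on the log2 scale, and the WT libraries of the 2 populations overlapped. Rag2 fell by 0.19 in KO (adjusted p = 0.0283) and by 0.22 in WT (adjusted p = 0.00997), to 29.5 ± 0.499 CPM in KO MPP and 27.3 ± 3.42 CPM in WT MPP, against 33.7 ± 2.49 CPM in KO LT-HSC and 31.7 ± 2.49 CPM in WT LT-HSC. When the gene-end share entered the fit, Rag1 had -0.04 in both genotypes and Rag2 0.05 in KO and 0.02 in WT, and no call was left. Over regions that overlap the gene body alone, Rag1 had 0.14 in KO and 0.29 in WT, neither past the threshold. The Rag1 calls were also lost with the loess offset, and in WT without WT LT-HSC replicate 1. The Rag2 call in KO was lost without replicate 1 or 3 of either KO population, and that in WT without WT LT-HSC replicate 3 or WT MPP replicate 1 or 2.

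Cd27 stood at 38.6 ± 0.851 CPM in KO MPP and 37.5 ± 3.45 CPM in WT MPP, against 34.9 ± 1.58 CPM in KO LT-HSC and 37.7 ± 2.88 CPM in WT LT-HSC. The difference passed the test in KO (log2 fold change 0.14 ± 0.06, adjusted p = 0.0478) and not in WT (-0.01 ± 0.06, adjusted p = 0.858), and the test of the difference between genotypes was not passed (0.16 ± 0.09, adjusted p = 0.555). The KO call was lost in 12 alternatives, among them RLE, total-count and loess scaling, DESeq2 and the gene-end share in the fit, and without WT LT-HSC replicate 1, KO LT-HSC replicate 2 or 3, or any 1 KO MPP library. A single Cd27 region overlaps the gene body, and the sum counted over it alone was lower in MPP in both genotypes, with log2 fold changes of -0.42 in KO (adjusted p = 0.00388) and -0.62 in WT (adjusted p = 5.2e-05).

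**Figure D1:**
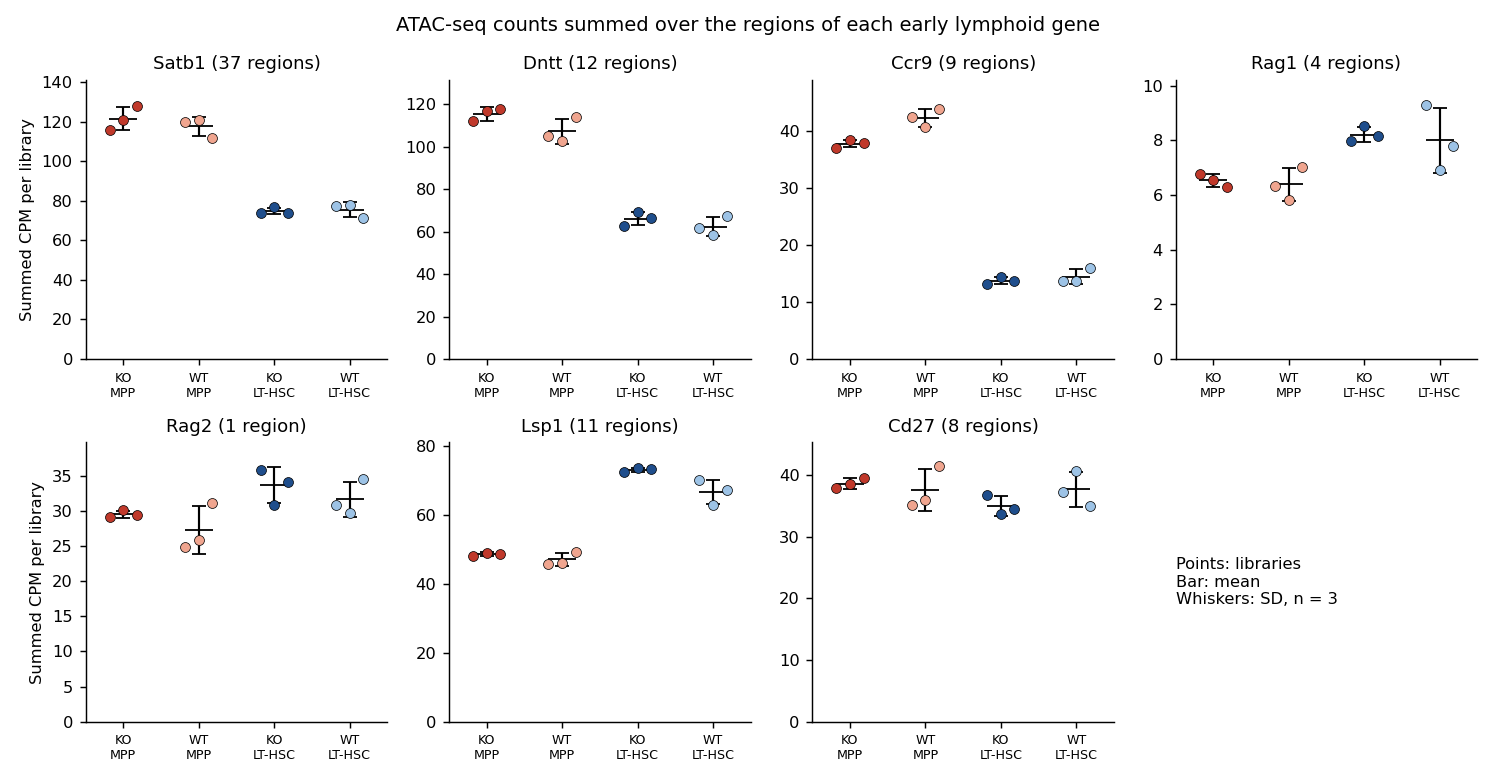
ATAC-seq counts summed over the regions of each gene, in CPM per library, for KO MPP, WT MPP, KO LT-HSC and WT LT-HSC; points are libraries, bars are means and whiskers SD (n = 3). Satb1, Dntt and Ccr9 stand higher in MPP and Lsp1 lower, while the groups of Cd27 and Rag2 lie close together.

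Region by region, 45 of the 82 were higher and 20 lower in MPP in KO, where 33.3% rose and 34.4% fell among the 186373 regions tested. In WT, 43 were higher and 21 lower, where 34.6% of all regions were higher and 35.2% lower. The same shares over all regions stand beside the counts for each gene below. The median log2 fold change over the 82 regions was 0.71 in KO and 0.59 in WT, against 0.00 and 0.01 over all tested regions. Regions outside gene bodies and gene ends were higher in 22 of 35 cases in KO and 21 of 35 in WT, against 35.1% and 36.4% of all such regions. Within gene bodies 19 of 36 were higher in KO and 18 of 36 in WT, against 32.4% and 33.6% of all such regions. At gene ends 4 of 11 were higher in both genotypes, against 31.4% in KO and 32.6% in WT genome-wide.

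Satb1 (chr17:51736187-51833290, minus strand) had 25 regions higher and 5 lower in KO MPP than in KO LT-HSC, and 23 higher and 6 lower in WT. The region with most counts covered both start sites shown above (chr17:51832454-51833460). It held 20.4, 21.2 and 20.8 CPM in KO MPP and 26.6, 25.7 and 23.7 CPM in WT MPP, against 11.8, 11.2 and 11.3 CPM in KO LT-HSC and 13.2, 14.6 and 12.1 CPM in WT LT-HSC. MPP exceeded LT-HSC in every library, with log2 fold changes of 0.86 ± 0.08 in KO (adjusted p = 7.07e-11) and 0.93 ± 0.08 in WT (adjusted p = 3.72e-12). Inside the gene body, 48.2 kb after the start, a region (chr17:51784915-51785349) that was close to closed in LT-HSC was open in MPP. It held 6.0, 5.63 and 6.50 CPM in KO MPP and 5.16, 5.61 and 4.26 CPM in WT MPP, against 0.743, 0.354 and 0.445 CPM in KO LT-HSC and 0.315, 0.393 and 0.463 CPM in WT LT-HSC. The log2 fold changes of 3.48 ± 0.20 in KO (adjusted p = 4.75e-16) and 3.68 ± 0.20 in WT (adjusted p = 1.69e-16) were the largest at Satb1.

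Satb1 also lost accessibility at some sites. At 27.4 kb upstream of the start (chr17:51860480-51860913) the region held 0.429, 0.790 and 0.620 CPM in KO MPP and 0.501, 0.50 and 0.372 CPM in WT MPP, against 3.08, 2.94 and 3.25 CPM in KO LT-HSC and 2.38, 2.16 and 3.18 CPM in WT LT-HSC. The groups did not overlap, and the log2 fold change was -2.28 ± 0.22 in KO (adjusted p = 6.61e-11) and -2.45 ± 0.22 in WT (adjusted p = 2.22e-11). Chosen after its values were seen, a region 18.8 kb into the gene (chr17:51814221-51814789) stood highest of all Satb1 regions per kb of length, at 21.5 CPM per kb, and was higher in MPP by 1.35 ± 0.10 in KO (adjusted p = 4.19e-13) and by 1.61 ± 0.10 in WT (adjusted p = 4.94e-15). Over the whole gene the log2 fold changes ran from -2.43 to 3.48 in KO and from -2.45 to 3.68 in WT.

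**Figure D2:**
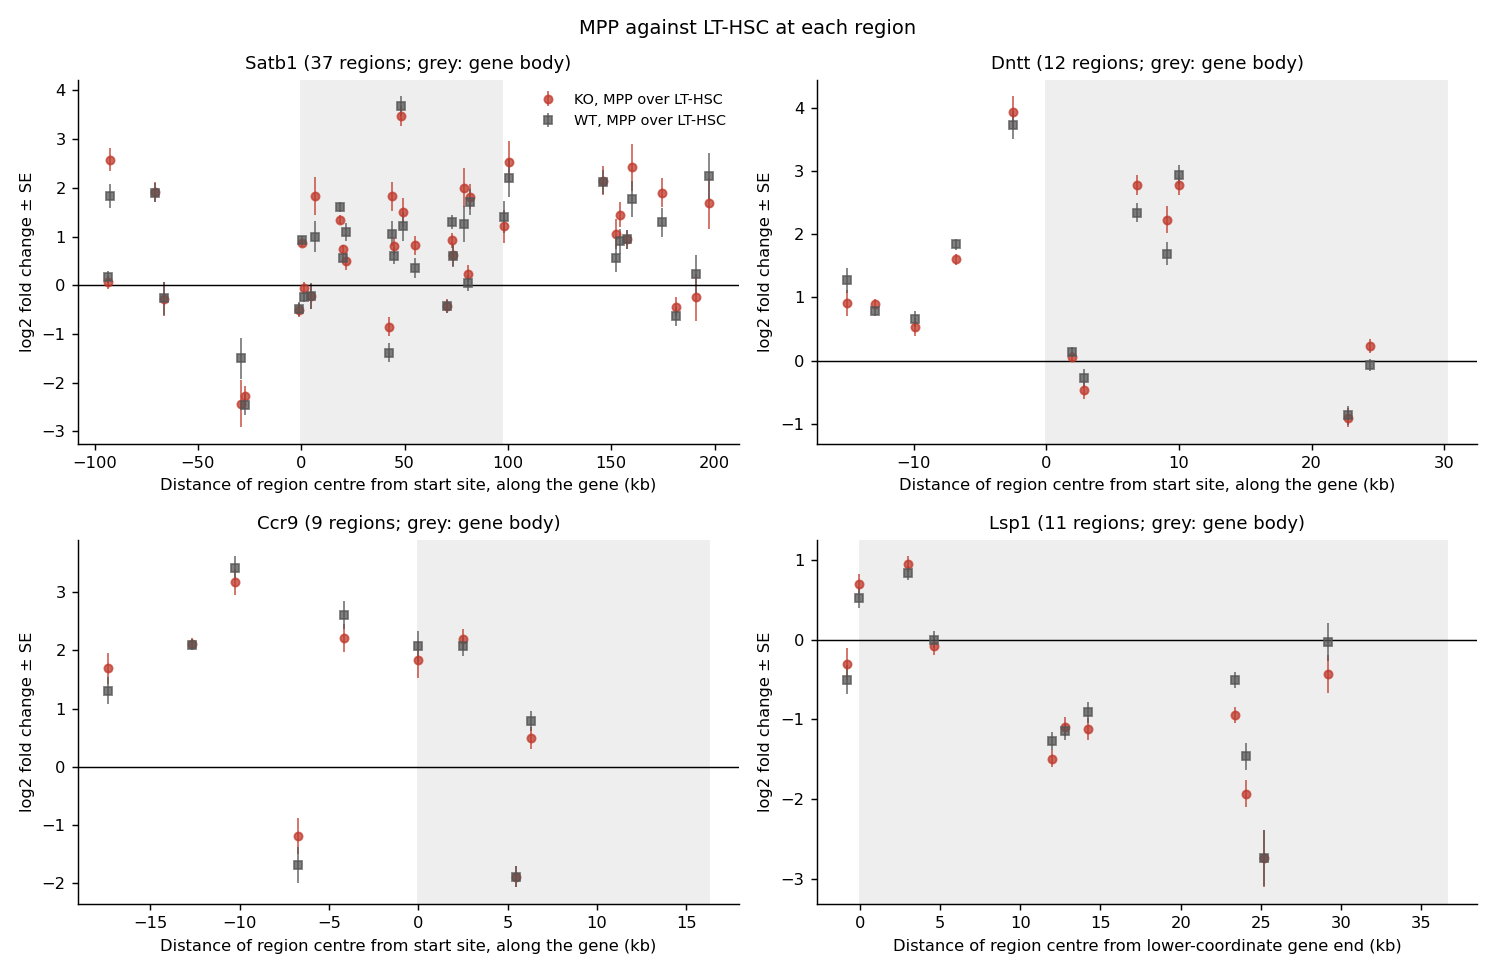
Log2 fold change (± SE) of MPP over LT-HSC in KO (red circles) and WT (grey squares) at each region of Satb1, Dntt, Ccr9 and Lsp1, placed by distance in kb from the start site, or for Lsp1 from the lower-coordinate gene end; grey bands are gene bodies. Regions of 1 gene moved both ways, from -2.43 to 3.48 at Satb1 in KO, and the KO and WT values lay close at most regions.

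Dntt (chr19:41029275-41059525, plus strand) had no region at its start site, and its accessible regions lay on either side. In KO 8 regions were higher and 2 lower in MPP, and in WT 8 were higher and 1 lower. The strongest region, 1.95 kb after the start (chr19:41031010-41031437), did not differ past the threshold between MPP and LT-HSC. It held 23.5 ± 1.78 CPM in KO MPP and 23.5 ± 1.59 CPM in WT MPP, against 22.6 ± 1.98 CPM in KO LT-HSC and 21.4 ± 1.69 CPM in WT LT-HSC, and the log2 fold change was 0.06 ± 0.08 in KO (adjusted p = 0.529) and 0.13 ± 0.08 in WT (adjusted p = 0.148). The WT difference passed with the gene-end share in the fit and without WT LT-HSC replicate 3. Per kb of length it ranked at the 95.7th percentile of all tested regions.

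A second strong region lay 6.84 kb upstream of the Dntt start (chr19:41022153-41022713) and differed between all 4 groups. It held 24.7, 25.6 and 24.7 CPM in KO MPP and 21.2, 18.7 and 19.7 CPM in WT MPP, against 7.71, 8.38 and 8.82 CPM in KO LT-HSC and 5.16, 5.65 and 5.79 CPM in WT LT-HSC. The 4 groups did not overlap, in the order KO MPP, WT MPP, KO LT-HSC, WT LT-HSC from high to low. MPP over LT-HSC gave a log2 fold change of 1.60 ± 0.09 in KO (adjusted p = 1.03e-16) and 1.84 ± 0.09 in WT (adjusted p = 4.57e-18). Chosen after its values were seen, the region 2.55 kb upstream (chr19:41026500-41026951) had the largest change of all 82. It held 4.72, 4.42 and 4.18 CPM in KO MPP and 4.84, 4.5 and 5.58 CPM in WT MPP, against 0.303, 0.318 and 0.223 CPM in KO LT-HSC and 0.602, 0.365 and 0.145 CPM in WT LT-HSC. All MPP libraries were above all LT-HSC libraries there, by 3.93 ± 0.25 in KO (adjusted p = 6.56e-15) and 3.72 ± 0.22 in WT (adjusted p = 9.83e-16) on the log2 scale. Lower in MPP was a region 22.8 kb into the gene (chr19:41051682-41052401), with a log2 fold change of -0.90 ± 0.15 in KO (adjusted p = 6.53e-06) and -0.86 ± 0.15 in WT (adjusted p = 8.04e-06).

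Rag1 (chr2:101638252-101649532, minus strand) and Rag2 (chr2:101624712-101632528, plus strand) are neighbours read towards each other. The Rag1 start-site region (chr2:101649377-101649819), over the Rag1 promoter shown above, held 2.85, 2.57 and 2.24 CPM in KO MPP and 2.76, 2.83 and 3.11 CPM in WT MPP, against 2.01, 2.33 and 2.67 CPM in KO LT-HSC and 2.15, 2.08 and 2.66 CPM in WT LT-HSC. KO libraries overlapped and WT libraries did not, and neither the log2 fold change in KO (0.13 ± 0.16, adjusted p = 0.478) nor that in WT (0.33 ± 0.15, adjusted p = 0.0544) passed the test. The WT difference did pass with the loess offset, with the replicate block, with the filter at 1 CPM and without WT LT-HSC replicate 3. At 3.51 kb upstream (chr2:101652800-101653281) accessibility was lower in MPP, at 3.00, 2.99 and 2.91 CPM in KO MPP and 2.56, 1.88 and 2.37 CPM in WT MPP, against 5.04, 4.78 and 4.19 CPM in KO LT-HSC and 5.19, 3.60 and 4.08 CPM in WT LT-HSC. No libraries overlapped between the populations, and the log2 fold change was -0.66 ± 0.15 in KO (adjusted p = 0.000204) and -0.93 ± 0.15 in WT (adjusted p = 1.80e-06). With the gene-end share in the fit the KO call was lost (-0.51, adjusted p = 0.123).

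The only region given to Rag2 (chr2:101628805-101629260) lies 4.32 kb into its body and also overlaps Iftap, a gene on the minus strand with a RefSeq start site inside it. At 67.5 CPM per kb it ranked at the 97.0th percentile of all tested regions, and its counts cannot be split between the 2 genes. It held 30.2 ± 0.299 CPM in KO MPP and 27.4 ± 2.91 CPM in WT MPP, against 34.5 ± 2.77 CPM in KO LT-HSC and 31.0 ± 2.16 CPM in WT LT-HSC. The log2 fold change was -0.19 ± 0.08 in KO (adjusted p = 0.0256) and -0.18 ± 0.07 in WT (adjusted p = 0.0319), and entering the gene-end share in the fit brought it to 0.00 in KO and 0.01 in WT. Both calls were also lost with the filter at 1 CPM and without the same libraries as for the sum, and that in WT in DESeq2 and with the compared groups alone. No region of the union set lay at the Rag2 start itself.

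Ccr9 (chr9:123767211-123783457, plus strand) had 7 of 9 regions higher and 2 lower in MPP in both genotypes. Its strongest region, 12.7 kb upstream (chr9:123754325-123754780), held 19.2, 19.5 and 18.9 CPM in KO MPP and 23.3, 20.8 and 22 CPM in WT MPP, against 4.16, 4.35 and 4.85 CPM in KO LT-HSC and 4.96, 4.33 and 6.08 CPM in WT LT-HSC. MPP lay far above LT-HSC, by 2.12 ± 0.10 in KO (adjusted p = 1.67e-17) and 2.1 ± 0.10 in WT (adjusted p = 3.06e-18) on the log2 scale. The start-site region (chr9:123766986-123767431), over the promoter shown, was weaker. It held 1.25, 1.33 and 1.19 CPM in KO MPP and 1.58, 1.79 and 2.1 CPM in WT MPP, against 0.275, 0.212 and 0.623 CPM in KO LT-HSC and 0.315, 0.646 and 0.318 CPM in WT LT-HSC. It was higher in MPP by 1.84 ± 0.32 in KO (adjusted p = 5.98e-06) and 2.07 ± 0.27 in WT (adjusted p = 5.30e-08). Against these, a region 5.44 kb into the gene (chr9:123772217-123773084) was lower in MPP, at 1.13 ± 0.312 CPM in KO MPP and 0.932 ± 0.154 CPM in WT MPP, against 4.29 ± 0.515 CPM in KO LT-HSC and 3.45 ± 0.323 CPM in WT LT-HSC. Its log2 fold change was -1.90 ± 0.18 in both genotypes (adjusted p = 7.65e-11 in KO and 1.12e-10 in WT).

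Cd27 (chr6:125232620-125237136, minus strand) had 3 regions higher, 2 lower and 3 not called in each genotype. Its 37.5% higher lay near the share over all regions, 33.3% in KO and 34.6% in WT. Its 25.0% lower stood against 34.4% in KO and 35.2% in WT. At its start, the region with more counts (chr6:125237303-125237922) held 6.38 ± 0.625 CPM in KO MPP and 5.96 ± 0.786 CPM in WT MPP, against 5.53 ± 0.835 CPM in KO LT-HSC and 6.63 ± 0.277 CPM in WT LT-HSC, and the populations overlapped. The adjoining region over the promoter shown (chr6:125236858-125237297), chosen after its values were seen, is the one that overlaps the gene body, counted above as the body-only sum. In the region fit its log2 fold change was -0.42 ± 0.13 in KO (adjusted p = 0.00387), lost without KO LT-HSC replicate 1, and -0.58 ± 0.12 in WT (adjusted p = 8.68e-05). Upstream of the start the regions moved both ways. The one with most counts, 1.81 kb upstream (chr6:125238536-125239350), held 12.3 ± 0.773 CPM in KO MPP and 10.8 ± 1.15 CPM in WT MPP, against 6.70 ± 0.680 CPM in KO LT-HSC and 6.04 ± 0.497 CPM in WT LT-HSC. It was higher in MPP in all libraries, by 0.89 ± 0.10 in KO (adjusted p = 6.74e-09) and 0.83 ± 0.10 in WT (adjusted p = 2.07e-08). At 4.62 kb upstream (chr6:125241524-125241983) the log2 fold change was -0.77 ± 0.12 in KO (adjusted p = 1.08e-06) and -0.70 ± 0.11 in WT (adjusted p = 1.57e-06). At 15.4 kb upstream (chr6:125252283-125252728) it was 2.09 ± 0.33 in KO (adjusted p = 1.31e-06) and 2.82 ± 0.31 in WT (adjusted p = 1.96e-09).

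Lsp1 (chr7:142458223-142494868, strand not given in the sources used here) split mostly along its length. Of its 11 regions, 2 were higher and 6 lower in MPP in KO, and 2 were higher and 7 lower in WT. The 2 that rose lay at the lower-coordinate end (chr7:142457944-142458378), where the WT call was lost with the gene-end share in the fit (0.45, adjusted p = 0.0856), and 3.02 kb from it (chr7:142460641-142461836). Beside that end, a region centred at -0.809 kb (chr7:142457187-142457641), named after its values were seen, went the other way. It was lower in WT MPP (-0.50 ± 0.18, adjusted p = 0.0138), with libraries that overlapped, and not called in KO (-0.31 ± 0.20, adjusted p = 0.171). The region at 3.02 kb held 11.8, 11.7 and 12.2 CPM in KO MPP and 10.7, 11.3 and 9.91 CPM in WT MPP, against 6.14, 6.40 and 6.15 CPM in KO LT-HSC and 5.79, 6.04 and 6.14 CPM in WT LT-HSC. Every MPP library was above every LT-HSC library, by 0.94 ± 0.10 in KO (adjusted p = 3.29e-10) and 0.83 ± 0.09 in WT (adjusted p = 2.35e-09). Deeper in the body the strongest region, 12 kb from that end (chr7:142470043-142470493), was lower in MPP. It held 7.91, 6.96 and 6.25 CPM in KO MPP and 7.62, 5.27 and 7.58 CPM in WT MPP, against 20.1, 19.1 and 19.7 CPM in KO LT-HSC and 16.8, 15.1 and 16.8 CPM in WT LT-HSC. The log2 fold change was -1.49 ± 0.11 in KO (adjusted p = 1.65e-13) and -1.27 ± 0.11 in WT (adjusted p = 4.82e-12).

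Between KO and WT few of these regions differed, at most by 0.74 on the log2 scale among those that passed. In LT-HSC 5 of the 82 regions were higher in KO than in WT and 0 were lower, where genome-wide 3.27% were higher and 1.47% lower. At an unadjusted p under 0.05, edgeR gave 13 higher and 6 lower, and DESeq2 called 4 higher and 0 lower. In MPP 6 regions were higher and 1 lower in KO, where 5.12% of all regions were higher and 3.59% lower. The median log2 fold change of KO over WT across the 82 regions was 0.08 in both populations, against 0.00 in LT-HSC and -0.01 in MPP over all regions. Of all regions called in LT-HSC, 69% were higher in KO with TMM scaling, 45.2% with total-count scaling and 57.6% with a loess offset, and 83.2% in DESeq2; in MPP these shares were 58.8%, 47.8%, 52.3% and 67.1%. Regions of 8 erythroid and megakaryocyte markers also differed in MPP, with 9 of 32 higher and 0 lower in KO, and their part in the results below was not tested.

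Dntt held the region with the lowest adjusted p in both populations, the one 6.84 kb upstream described above. KO exceeded WT there in every library, by 0.58 ± 0.10 in LT-HSC (1.49-fold, adjusted p = 0.000632) and by 0.33 ± 0.08 in MPP (1.26-fold, adjusted p = 0.00656). The LT-HSC call held under each alternative run (adjusted p 2.97e-05 to 0.0163), and the MPP call was lost once the gene-end share was in the fit. Farther out, 12.9 kb upstream (chr19:41015959-41016769), KO MPP held 20.2, 21.6 and 21.3 CPM, against 17.9, 17.3 and 18.5 CPM in WT MPP, with KO LT-HSC at 11.0, 11.4 and 11.8 CPM against 10.1, 10.1 and 10.7 CPM in WT LT-HSC. KO lay above WT in both populations without overlap, but the difference passed the test in MPP alone (0.24 ± 0.07, adjusted p = 0.0426; 0.14 ± 0.08 in LT-HSC, adjusted p = 0.345). The MPP call was lost in 9 alternatives, among them the gene-end share in the fit, and total-count and loess scaling. It was also lost without WT MPP replicate 1 or 2 and without KO MPP replicate 2 or 3. Over all 12 regions the Dntt sum differed by 0.11 ± 0.05 in MPP (adjusted p = 0.0735) and by 0.08 ± 0.05 in LT-HSC (adjusted p = 0.287), neither past the threshold. The MPP difference did pass with the gene-end share in the fit, with the replicate block and without WT LT-HSC replicate 3 or WT MPP replicate 3.

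Satb1 held the 1 region that was lower in KO MPP, its start-site region, at 20.8 ± 0.409 CPM in KO MPP against 25.3 ± 1.47 CPM in WT MPP. The log2 fold change was -0.29 ± 0.08 (adjusted p = 0.0156), and -0.22 ± 0.08 in LT-HSC (adjusted p = 0.129), where all KO libraries were also below all WT libraries and the difference passed under total-count and loess scaling. Without WT MPP replicate 1 or 2, or KO MPP replicate 2 or 3, the MPP call was lost, with adjusted p no higher than 0.0739. A neighbouring region over the first part of the gene (chr17:51831594-51832389), named after its values were seen, moved oppositely, at 6.85 ± 0.224 CPM in KO MPP against 5.35 ± 0.321 CPM in WT MPP (0.35 ± 0.11, adjusted p = 0.0484). That call was lost in 14 of 21 alternatives, among them DESeq2, total-count and loess scaling, the gene-end share in the fit, and without any 1 MPP library or any 1 KO LT-HSC library.

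Other Satb1 regions that passed were higher in KO and lay far from the start. At 93.3 kb upstream (chr17:51926361-51926810) KO exceeded WT in both populations, with 5.69, 6.17 and 5.47 CPM in KO MPP against 5.09, 4.02 and 4.13 CPM in WT MPP, and 4.84, 5.98 and 6.01 CPM in KO LT-HSC against 3.61, 3.60 and 4.54 CPM in WT LT-HSC. The genotypes did not overlap, and KO was higher by 0.39 ± 0.13 in MPP (adjusted p = 0.0470) and 0.51 ± 0.13 in LT-HSC (adjusted p = 0.0228). Next to it, at 92.7 kb (chr17:51925765-51926267), KO MPP held 2.94 ± 0.439 CPM against 1.82 ± 0.219 CPM in WT MPP (0.71 ± 0.19, adjusted p = 0.0145). Within the gene, 55.2 kb after the start (chr17:51777821-51778327), KO MPP held 2.57 ± 0.323 CPM against 1.54 ± 0.161 CPM in WT MPP (0.74 ± 0.19, adjusted p = 0.0128). At 72.9 kb after the start (chr17:51760093-51760603) KO LT-HSC held 3.35 ± 0.246 CPM against 2.18 ± 0.480 CPM in WT LT-HSC (0.62 ± 0.17, adjusted p = 0.0266). Each of these 5 calls was lost with the gene-end share in the fit, and on leaving out KO MPP replicate 3 (the 3 MPP calls) or KO LT-HSC replicate 2 (the 2 LT-HSC calls). Other libraries whose removal ended a call were WT MPP replicate 2 at 92.7 kb, KO MPP replicate 2 at 55.2 kb, KO LT-HSC replicate 1 and WT LT-HSC replicates 1 and 3 at 72.9 kb, and 9 more cases at 93.3 kb. Total-count and loess scaling also ended both calls at 93.3 kb, and loess scaling ended the call at 72.9 kb. The MPP call at 93.3 kb was lost as well in DESeq2 and with the filter at 1 CPM. For the Satb1 sum KO over WT was 0.05 ± 0.04 in MPP (adjusted p = 0.416) and -0.01 ± 0.04 in LT-HSC (adjusted p = 0.859).

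Lsp1 had a higher sum in KO LT-HSC, at 73.0 ± 0.525 CPM against 66.6 ± 3.53 CPM in WT LT-HSC (0.13 ± 0.04, adjusted p = 0.0405). It was the 1 gene sum of 7 called in LT-HSC, where 8.09% of all gene sums were higher and 8.93% lower. The call was lost with the loess offset, and without WT LT-HSC replicate 2 or 3, any 1 KO LT-HSC library or KO MPP replicate 2. Inside it, 23.4 kb from the lower-coordinate end (chr7:142481163-142481994), KO LT-HSC held 11.8, 10.9 and 13.1 CPM against 9.49, 9.66 and 9.44 CPM in WT LT-HSC (0.32 ± 0.09, adjusted p = 0.0441). At 24.1 kb (chr7:142482148-142482581) KO LT-HSC held 6.17, 5.62 and 5.83 CPM against 4.33, 3.71 and 4.40 CPM in WT LT-HSC (0.51 ± 0.15, adjusted p = 0.0467). KO libraries were above WT libraries at both, and both calls were lost without any 1 of the 6 LT-HSC libraries, with the gene-end share in the fit, with total-count or loess scaling and with the filter at 1 CPM. The call at 23.4 kb was also lost with the compared groups alone and without KO MPP replicate 2, and that at 24.1 kb in DESeq2 and without any 1 KO MPP library. In MPP the same regions differed by -0.12 ± 0.10 (adjusted p = 0.482) and 0.04 ± 0.20 (adjusted p = 0.937).

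Ccr9 had a lower sum in KO MPP, by -0.16 ± 0.05 (adjusted p = 0.0318), with KO libraries at 37.1 to 38.4 CPM against WT libraries at 40.7 to 43.8 CPM. It was the 1 gene sum of 7 called in MPP, where 15.4% of all gene sums were higher and 13.9% lower, and the call was lost without WT MPP replicate 1 or 3, without any 1 KO MPP library, over gene body overlap alone and with the gene-end share in the fit. None of its 9 regions passed singly, in edgeR or DESeq2, while at an unadjusted p under 0.05 edgeR gave 3 lower in KO MPP and DESeq2 2. No region of Rag1, Rag2 or Cd27 passed in either population with either tool. At an unadjusted p under 0.05 edgeR gave 1 Rag1 region higher in KO MPP, the Rag2 region higher in KO LT-HSC, and at Cd27 1 region lower in KO LT-HSC and 1 each way in KO MPP. For their sums, KO over WT in MPP was 0.04 ± 0.11 at Rag1, 0.12 ± 0.07 at Rag2 and 0.05 ± 0.06 at Cd27, and that at Rag2 passed with the gene-end share in the fit and without WT MPP replicate 3.

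**Figure D3:**
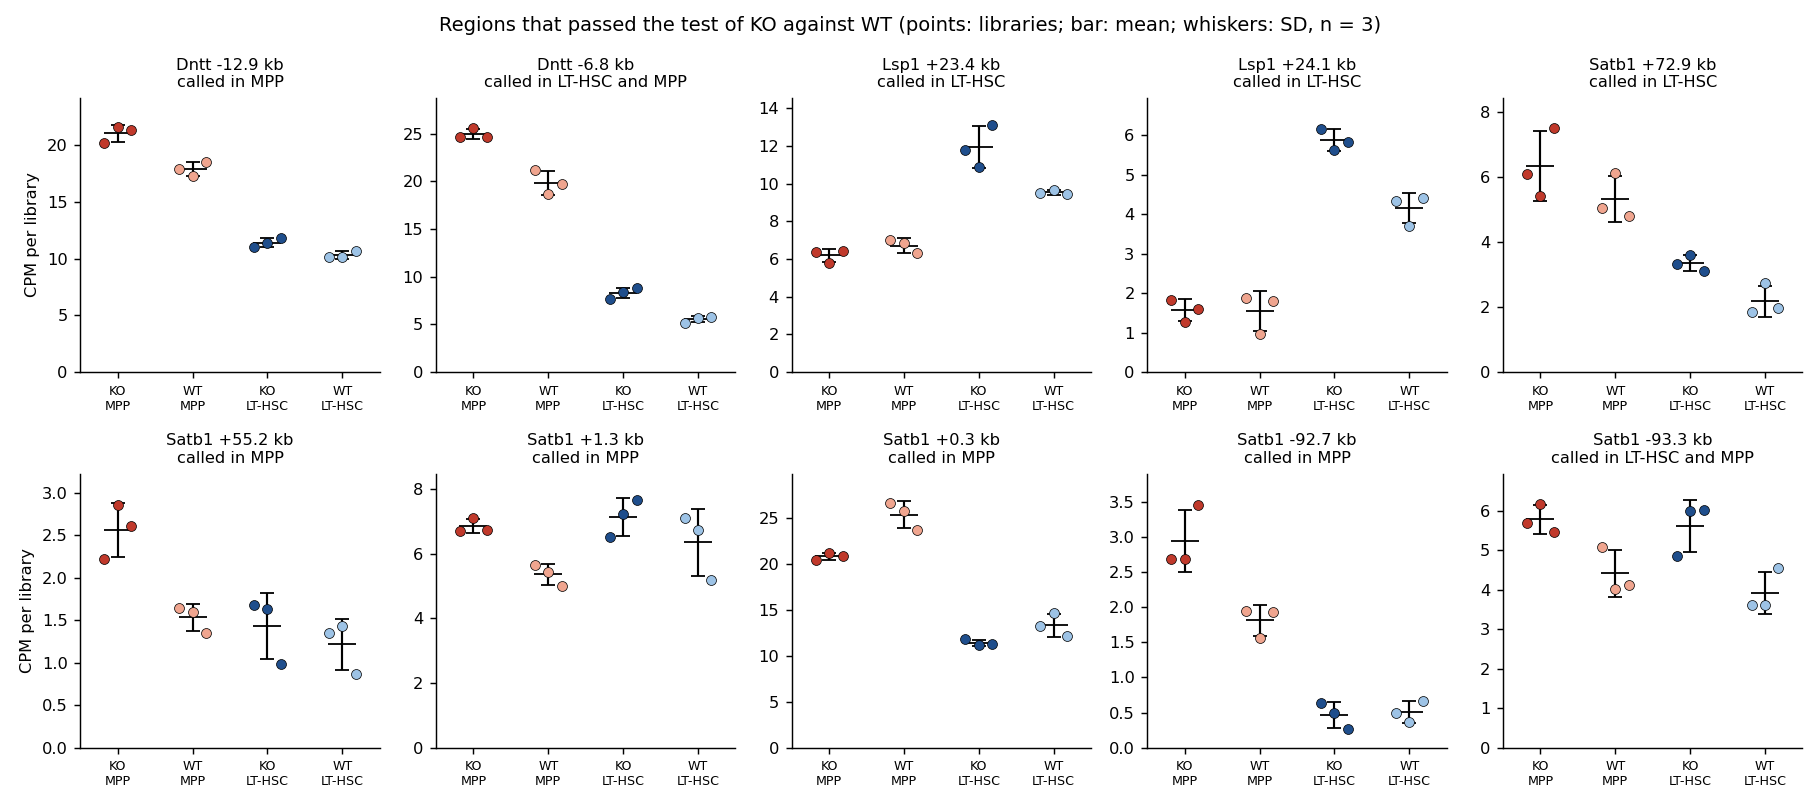
CPM per library in KO MPP, WT MPP, KO LT-HSC and WT LT-HSC at the 10 regions that passed the test of KO against WT in at least 1 population; points are libraries, bars means and whiskers SD (n = 3), and titles give the distance from the start site (for Lsp1, from the lower-coordinate end). The Dntt region at 6.84 kb upstream separates the genotypes in both populations, and the Satb1 start-site region is the only one where the difference that passed was lower in KO.

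Whether the effect of genotype differed between the populations was tested as an interaction. None of the 82 regions passed it in edgeR or DESeq2, where 0.00805% of all regions did in edgeR, and at an unadjusted p under 0.05 edgeR gave 2 regions each way and DESeq2 1 lower. The region nearest to passing was the Lsp1 region at 23.4 kb, where the KO over WT difference was lower in MPP than in LT-HSC by -0.44 ± 0.14 (adjusted p = 0.461). The next by p, 21.6 kb into Satb1 (chr17:51811451-51811869), had -0.59 ± 0.27 (adjusted p = 0.629). None of the 7 gene sums passed in edgeR or DESeq2 either, against 0.0212% of all gene sums, and none had an unadjusted p under 0.05. So a call in 1 population alone is not shown to be a difference between the populations.

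**Figure D4:**
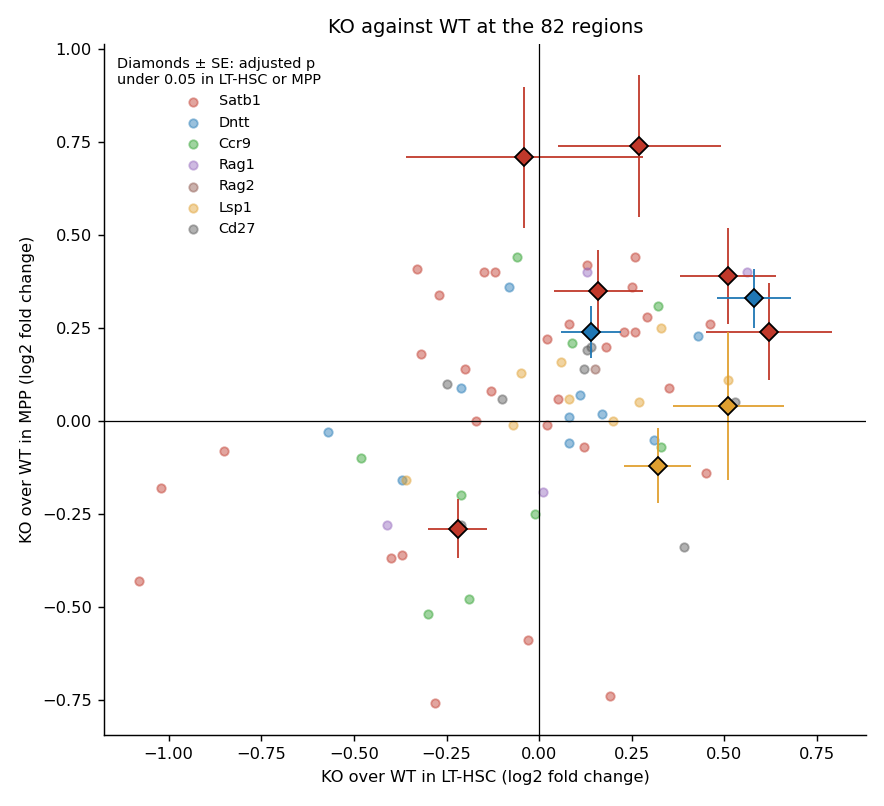
Log2 fold change of KO over WT in MPP (vertical axis) against that in LT-HSC (horizontal axis) at the 82 regions, coloured by gene; diamonds with SE bars mark the 10 regions with adjusted p under 0.05 in either population. Most diamonds lie above 0 on both axes, and the Satb1 start-site region lies below 0 on both.

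Genes related to these 7 by family, pathway or role were counted the same way, beside the shares over all regions given above. Among 14 other chemokine receptors, 62.6% of 182 regions were higher and 13.2% lower in MPP in KO, and 61.0% and 16.5% in WT. Cxcr4, which holds progenitors in the marrow, had a region at 6.48 CPM in KO MPP and 6.82 CPM in WT MPP, against 0.652 CPM in KO LT-HSC and 0.524 CPM in WT LT-HSC. A region at Ccr3, an eosinophil chemokine receptor, was lower in MPP, with log2 fold changes of -3.53 in KO and -3.71 in WT. Among 13 lymphoid receptors and signalling genes, 53.3% of 227 regions were higher and 21.1% lower in KO, and 51.5% and 22% in WT. A region of Notch1, whose receptor directs T cell fate, rose by 2.59 in KO and 2.34 in WT, and regions of Stat5b and Ptprc rose by 3.22 and 3.02 in KO and by 3.96 and 3.63 in WT.

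For the partners of Rag1, Rag2 and Dntt the picture was closer to the genome. Of 103 regions at 12 genes of V(D)J recombination and end joining, 39.8% were higher and 34.0% lower in KO, and 41.7% and 32.0% in WT, with 5 gene sums higher and 1 lower in each. Xrcc6, a subunit of the Ku protein that binds broken ends, had a region at 9.53 CPM in KO MPP and 14.3 CPM in WT MPP, against 0.474 CPM in KO LT-HSC and 0.486 CPM in WT LT-HSC. Xrcc4, which works with the end-joining ligase, rose at a region by 2.71 in KO and 2.36 in WT, and Dclre1c, the nuclease that opens hairpin ends, by 0.76 and 0.77. Of 601 regions at 19 lymphoid transcription factors, 32.8% were higher and 37.9% lower in KO, and 35.8% and 36.6% in WT, close to all regions. Lef1 rose at a region by 2.63 in KO and 2.47 in WT, while regions of Foxo1 and Bcl11a fell by 3.84 and 1.41 in KO and by 4.29 and 1.60 in WT. At 9 genes of the Cd27 pathway, 36.7% of 90 regions were higher and 32.2% lower in KO, and 46.7% and 33.3% in WT. Its adaptor Traf2 and the kinase Map3k14 rose at a region by 1.11 and 1.30 in KO and by 1.55 and 1.26 in WT, while a Traf3 region fell by 1.79 in KO and 1.98 in WT.

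Markers of other cell types moved with the same comparison. Regions of 8 B cell markers were higher in 53.8% and lower in 15.4% of 39 cases in KO, and in 56.4% and 15.4% in WT, and their summed level was 125 to 128 CPM in KO MPP and 134 to 147 CPM in WT MPP, against 86.6 to 89.6 CPM in KO LT-HSC and 92.3 to 95.0 CPM in WT LT-HSC. For 7 T cell markers these shares of 37 regions were 54.1% and 5.41% in KO and 62.2% and 5.41% in WT, with 151 to 162 CPM in KO MPP and 163 to 166 CPM in WT MPP, against 112 to 118 CPM in LT-HSC of either genotype. For 6 NK cell markers they were 48.8% and 14.6% of 41 regions in KO and 53.7% and 17.1% in WT, with 239 to 258 CPM in KO MPP and 229 to 244 CPM in WT MPP, against 204 to 223 CPM in KO LT-HSC and 212 to 237 CPM in WT LT-HSC. For 8 myeloid markers they were 68.3% and 9.76% of 41 regions in KO and 65.9% and 17.1% in WT, with 193 to 211 CPM in KO MPP and 203 to 211 CPM in WT MPP, against 136 to 137 CPM in KO LT-HSC and 140 to 145 CPM in WT LT-HSC. For 8 erythroid and megakaryocyte markers 28.1% of 32 regions were higher and 40.6% lower in KO, and 18.8% and 46.9% in WT, with 269 to 270 CPM in KO MPP and 237 to 253 CPM in WT MPP, against 307 to 337 CPM in KO LT-HSC and 310 to 319 CPM in WT LT-HSC. No marker gene with a region was at 0 in any library, Cd3g had no region, and the part of such cells in the results above was not tested.

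**Figure D5:**
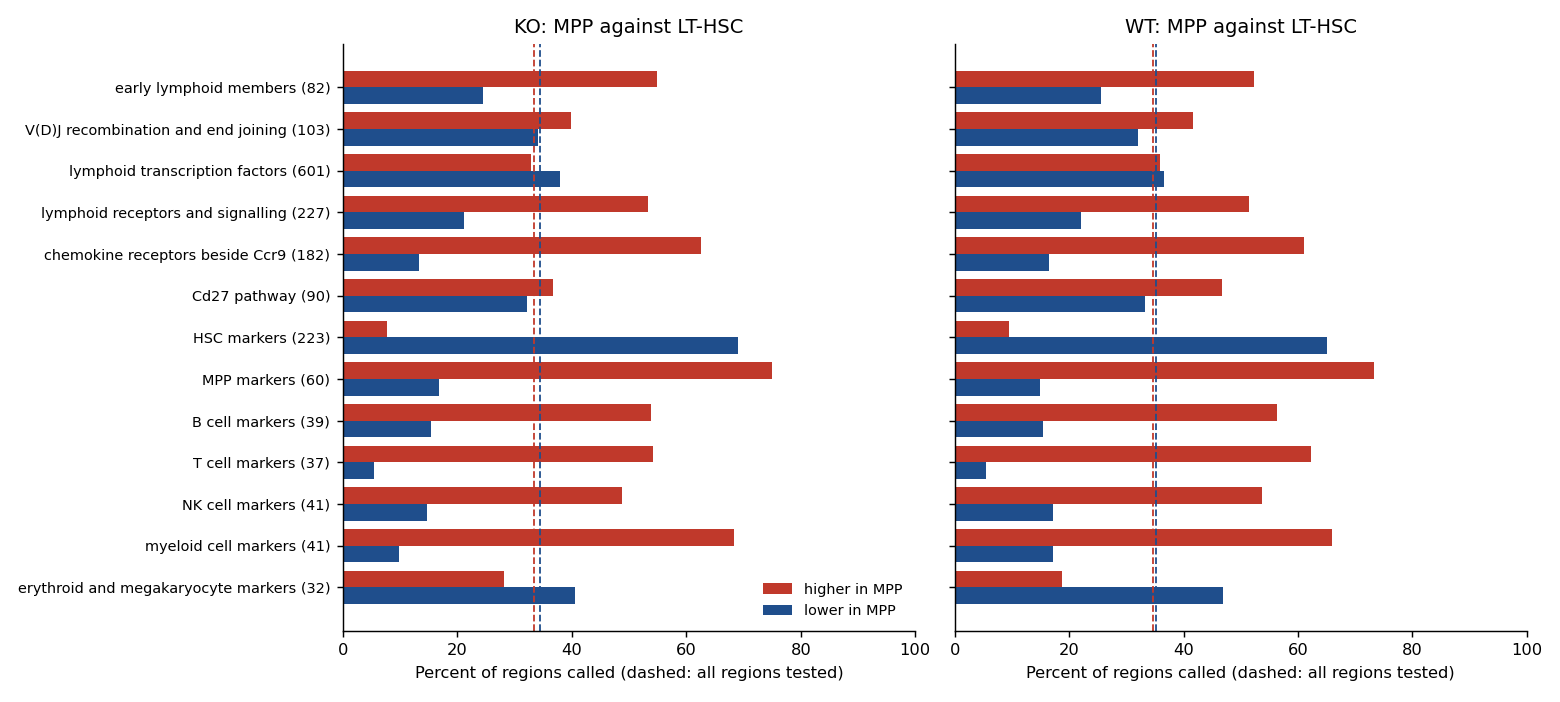
Percent of regions called higher (red) or lower (blue) in MPP than in LT-HSC, in KO (left) and WT (right), for the 7 genes and 12 lists of related genes, with the number of regions in brackets; dashed lines give the same shares over all tested regions. The 7 genes had 54.9% higher and 24.4% lower in KO. Shares called higher in KO were 53.3% at lymphoid receptors, 53.8% at B cell, 54.1% at T cell and 48.8% at NK cell markers. Other chemokine receptors (62.6%), myeloid markers (68.3%) and MPP markers (75.0%) lay above the 7 genes. The remaining lists lay lower, with HSC markers at 7.62% higher and 69.1% lower.

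The 7 genes did not follow a single profile over the 12 libraries. On standardised log2 CPM of the gene sums, each gene's correlation with the mean of the other 6 ran from -0.68 at Lsp1 to 0.16 at Cd27, a description over libraries that share the same 4 groups. This mean mixes genes higher in MPP (Satb1, Dntt and Ccr9) with genes lower in MPP, so their profiles partly cancel. Low values therefore do not show that Satb1, Dntt and Ccr9 differ from each other in profile. The genes most like the mean of the 7, which cancels in the same way, were Atg14 (r = 0.869), Slco3a1 (0.855), Eif2s2 (0.849), Rrm2 (0.848) and Enkd1 (0.838). Like that mean, each of these genes changed little between MPP and LT-HSC, by 0.07 to 0.22 in KO and 0.05 to 0.12 in WT on the log2 scale.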

How the data were processed

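The deposited table held raw counts per region for all 12 libraries; per the submitters' processing notes the authors used MACS2 2.1.1, DESeq2 1.22.1, Bowtie2, cutadapt and featureCounts with the genome GRCm38. Neither their settings nor any filter on peaks or reads was stated. RefSeq protein-coding gene bodies on GRCm38.p6 took 172530 of the 188262 regions (91.6%). In R 4.3.3, edgeR 4.0.16 was run on the counts, using TMM scaling, its default filter on low counts and 1 mean for each group over all 12 libraries. The quasi-likelihood F test was used, with Benjamini-Hochberg adjustment over 186373 regions or 18829 gene sums and adjusted p under 0.05 as the threshold. Fold changes came from the fit at its default settings, and a prior count of 2 was used only for log2 CPM. Libraries of 1 group varied by 8.18% at regions and 3.98% at gene sums (biological coefficient of variation). CPM values are TMM-scaled, with factors of their own for gene sums. Alternatives used DESeq2 1.42.0 and a loess offset from limma 3.58.1, among others. The fits were tested on simulated data.

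The genes, lists and tests were chosen with earlier results of these data known. Regions were named by rule: for each gene, its start-site region, the region with most counts and the called region of lowest p in each direction of each comparison; between KO and WT up to 4 called regions for each gene, and for the interaction the 2 of lowest p, were added. In each list the genes named were at most 3, those with the region of lowest p in WT MPP against WT LT-HSC. A further gene that this rule names is not reported here.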

Additional observations from a re-analysis of the deposited data

How the results depend on the processing

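For 190 single results under up to 23 alternatives, 4001 values were compared with the main fit. Of these, 142 lost the call, 23 gained one in the same direction and 7 had the opposite sign to a called result. The other 3829 kept a call and its direction, or belonged to a result without a call and gained none in its direction. A change of sign was not counted where the main result had no call. Where no cause is shown by the alternative's own construction, the cause was not tested. Counting gene body overlap alone left fewer regions, and their calls were those of the main fit. The lower counts therefore come from the smaller set, and no call was lost at a region that was kept. It gave 22 higher and 13 lower in MPP in KO, and 21 higher and 12 lower in WT. For KO against WT it gave 3 higher in LT-HSC and 2 higher in MPP, with 0 gene sums called in MPP. As sums, it turned Rag1 to 0.14 in KO and 0.29 in WT and Cd27 to -0.42 in KO. With the gene-end share as covariate, calls over all regions fell too, as given above. Of the regions of these genes, 12 were lower in MPP in KO, 3 were higher in KO LT-HSC and 0 in KO MPP. Gene sums gave 4 calls between populations in KO and 2 between genotypes in MPP. Rag2 turned to 0.05 in KO and 0.02 in WT as a sum, and to 0.00 and 0.01 as a region. Total-count scaling gave 2 regions higher and 1 lower in KO LT-HSC and 3 higher in KO MPP. The loess offset gave 1 higher and 1 lower in KO LT-HSC, 3 higher in KO MPP, and 0 gene sums between genotypes in LT-HSC. A minimum of 1 CPM in 3 libraries tested fewer regions and left 3 higher in KO LT-HSC.

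Leaving out 1 library at a time gave 1 to 7 regions higher and 0 to 1 lower in KO LT-HSC, 1 to 7 higher and 0 to 1 lower in KO MPP, and 0 to 1 and 0 to 2 gene sums called in LT-HSC and MPP. The lowest counts came without WT LT-HSC replicate 1 (1 region in LT-HSC) and without KO MPP replicate 3 (1 region in MPP). Calls over all regions fell as well. Those higher in KO went from 6093 to 3477 in LT-HSC without the first library, and from 9542 to 4198 in MPP without the second. Replicate numbers were not taken as pairs: same-numbered MPP and LT-HSC libraries had deviations correlated by 0.0536 to 0.114, and same-numbered KO and WT libraries by -0.0367 to 0.033, although each MPP library correlated best with its own number in LT-HSC. With the numbers as a replicate block, 47 regions were higher and 21 lower in MPP in KO, 44 and 23 in WT, 6 were higher in KO LT-HSC, 7 higher and 1 lower in KO MPP, and 2 gene sums were called in MPP.

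Depth limits the weak regions most, since 23 of the 82 averaged under 1 CPM, 15 of them at Satb1, and a missed call there does not show equal accessibility. With 3 libraries a group, an exact permutation test of a single region could not go below 0.1, so the calls rest on the spread shared across all regions.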
